A study of Mus musculus with 8 samples.

Results

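The response of mouse bone marrow derived macrophages to interferon beta (IFN-β) was described in cells given spermine, a natural polyamine, by comparing the libraries taken 3 h after IFN-β with those taken at 0 h. The rule kept every gene with at least 1 FPKM (a read level corrected for gene length and library size) in at least 2 of the 8 libraries of the study, which left 11421 of 54532 genes. A gene silent at 0 h could pass through its 3 h level alone, and a gene low with spermine through the PBS libraries alone. Polyadenylated RNA was sequenced from 4 groups of 2 libraries: spermine at 0 h, spermine with IFN-β for 3 h, the vehicle PBS at 0 h, and PBS with IFN-β for 3 h. The 4 spermine libraries carry the comparison, and the 4 PBS libraries add to the estimate of the spread and give the response that the spermine response is set against.

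The short form spm in the sample titles is read as spermine from the series text, which names DMSO as the vehicle where the titles say PBS. Neither the dose and length of the spermine treatment, nor the dose of IFN-β, nor the strain, sex and age of the mice is stated in the labels. The design has no untreated 3 h group, so that time in culture and IFN-β cannot be told apart. The extraction protocol speaks of blood while every label says macrophage. The replicates carry the numbers 1 and 2, and nothing says that they came from separate mice or cultures, so p-values measure the spread between these libraries, which may be technical. With 2 libraries against 2 an exact permutation test cannot go below p = 0.3333. Tests were therefore made with limma over all 11421 genes on log2(FPKM + 1), in which the 4 groups share 1 estimate of the spread. "Adjusted p" below means limma's p after Benjamini-Hochberg adjustment over those genes. A gene passed at an adjusted p under 0.05, and only such genes are said to have risen or fallen.

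Type I interferons bind a receptor made of IFNAR1 and IFNAR2, which activates the kinases TYK2 and JAK1. These phosphorylate STAT2, which joins IRF9 in the complex ISGF3 that binds the interferon-stimulated response element near the start of antiviral genes. In macrophages the products block viral entry, RNA and translation, sense foreign nucleic acid, load peptides on MHC class I and call in other leukocytes, and several of them, such as SOCS1 and USP18, close the receptor down again.

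Each library held between 15723437 and 17744844 reads, rebuilt from the deposited values. All 10 macrophage markers on the list passed the filter, and their FPKM summed to 13051 and 12491 at 0 h and to 13857 and 13970 at 3 h. Some defining markers of other cells were at 0 in all 4 spermine libraries (Ly6g for neutrophils, Pax5 for B cells, Cd3e, Cd3g, Cd8a and Trac for T cells, Hbb-bs and Hba-a1 for red cells). Others on these lists passed the filter at low levels: S100a8 at 4.44 and 2.93 FPKM at 0 h and 3.601 and 1.65 FPKM at 3 h, S100a9 at 3.35 and 3.05 and then 3.28 and 2.97 FPKM, Ighm at 4.29 and 4.11 and then 2.57 and 2.61 FPKM, and Cd4 at 3.399 and 2.95 and then 3.77 and 4.17 FPKM. The highest sum over any of those lists was 8.43 FPKM, over the 8 neutrophil markers. The 7 dendritic cell markers summed to 1.28 and 1.36 FPKM at 0 h and to 6.66 and 5.80 FPKM at 3 h, with Xcr1 the only one past the filter; the part of such cells in the response was not tested. In bulk RNA, fewer cells of a type and less RNA per cell cannot be told apart.

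Of the 11421 genes, 2248 rose (19.7%) and 2520 fell (22.1%), so that 41.7% passed in one direction or the other. These shares are the background for the counts per gene list below. The split depends on the scale: the deposited values follow median-of-ratios size factors and sum to more at 3 h than at 0 h. Rescaling each library to the same sum (TPM) lowered the median gene by 0.33 on the log2 scale and left 21.49% of the genes that passed as rising, against 47.15% as deposited and 33.6% after quantile normalization. Without the first or the second 3 h library 1550 or 1657 genes fell, so that the count of falls rests on both. Small changes are therefore given with their counts under both other scales. Of the genes given below as not passing, Fth1, Hmox1, Lyz2, Mavs, Parp1, Sms and Ticam1 passed as falls with TPM alone, and Adgre1, Calr, Ccl6, Pdia3 and Pkm after quantile normalization alone; those that did so under both are marked. Rises were far larger than falls. A rise of at least 1 (log2) was seen in 855 genes (7.49%) and of at least 3 in 193 (1.69%), against 214 genes (1.87%) that fell by at least 1 and 5, none of them protein coding, that fell by at least 2.

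The strongest part of the response held few genes and much RNA. The 64 genes that rose by 5 or more went from a median of 1.36 to 211 FPKM, and took 0.0656% and 0.0654% of the reads in the 0 h libraries and 8.04% and 8.48% in the 3 h libraries. A further 129 genes that rose by 3 to 5 went from 0.300% to 4.12% of the reads on average, and the 662 that rose by 1 to 3 from 3.88% to 9.86%. The 2306 genes that fell by under 1 went the other way, from 19.6% to 10.7% of the reads. In every gene that passed, both 3 h libraries lay on one side of both 0 h libraries; over all genes tested, the spermine libraries did not overlap in 34.6% with 3 h above and in 37.3% with 3 h below.

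**Figure D1:**
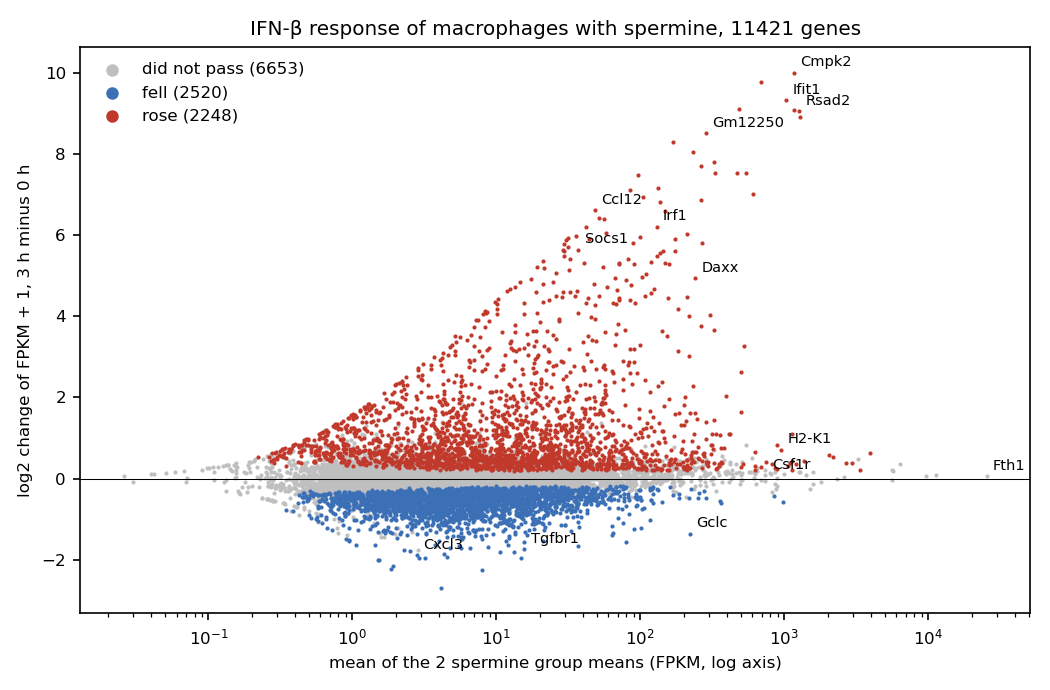
Each point is 1 of 11421 genes; the horizontal axis is the mean of the 0 h and 3 h group means with spermine (FPKM, log axis) and the vertical axis is the log2 change of FPKM + 1 from 0 h to 3 h. The 2248 genes that rose (red) reach up to 10.0 with Cmpk2, while the 2520 that fell (blue) stay above -3.

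The promoters of the genes that led the response are shown first, since the element that ISGF3 is known to bind can be searched for in them. The core of the interferon-stimulated response element, GAAA followed by any 2 bases and by GAAA, was searched on both strands in the 300 bases around each start (250 before, 50 after) in RefSeq promoters of GRCm38.p6. The 250 bases before the start are printed 5′ to 3′ on the gene's own strand, with each match in capitals; matches on the other strand read as TTTC, 2 bases and TTTC. Ifit1 (chr19:34640639-34640888, + strand) and Ifit3 (chr19:34583279-34583528, + strand), which make RNA-binding tetratricopeptide proteins, hold 2 matches each, at 104 and 85 bases and at 156 and 122 bases before the start. Rsad2 (chr12:26456453-26456702, - strand), the radical SAM enzyme viperin, holds 1 at 120 bases, and Cxcl10 (chr5:92348890-92349139, - strand), a T cell attracting chemokine, holds 1 at 213 bases. Cmpk2 (chr12:26468965-26469214, + strand), a mitochondrial nucleotide kinase, has no match in the window. Its rise was the largest on log2(FPKM + 1), while Cxcl10 rose more than Cmpk2 with a pseudocount of 0.1, with TPM and under limma voom.
Ifit1: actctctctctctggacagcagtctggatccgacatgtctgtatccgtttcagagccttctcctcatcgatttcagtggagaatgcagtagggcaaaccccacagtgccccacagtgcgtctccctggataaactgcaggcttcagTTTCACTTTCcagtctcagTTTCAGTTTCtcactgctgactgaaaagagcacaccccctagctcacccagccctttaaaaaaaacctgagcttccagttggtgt
Ifit3: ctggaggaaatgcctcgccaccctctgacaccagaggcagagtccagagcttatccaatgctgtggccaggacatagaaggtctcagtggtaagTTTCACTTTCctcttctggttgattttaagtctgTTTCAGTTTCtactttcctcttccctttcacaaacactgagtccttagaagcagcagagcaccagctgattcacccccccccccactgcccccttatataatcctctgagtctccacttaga
Rsad2: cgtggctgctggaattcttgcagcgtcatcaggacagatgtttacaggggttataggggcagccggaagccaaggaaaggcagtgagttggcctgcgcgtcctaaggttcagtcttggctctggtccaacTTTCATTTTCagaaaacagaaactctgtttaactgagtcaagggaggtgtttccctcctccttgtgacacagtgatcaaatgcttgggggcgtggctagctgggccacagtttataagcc
Cxcl10: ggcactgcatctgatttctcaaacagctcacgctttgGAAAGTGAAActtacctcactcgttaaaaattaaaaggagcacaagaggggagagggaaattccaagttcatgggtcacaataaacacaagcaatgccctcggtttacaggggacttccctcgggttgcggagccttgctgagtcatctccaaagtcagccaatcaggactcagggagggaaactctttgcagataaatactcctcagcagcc
Cmpk2: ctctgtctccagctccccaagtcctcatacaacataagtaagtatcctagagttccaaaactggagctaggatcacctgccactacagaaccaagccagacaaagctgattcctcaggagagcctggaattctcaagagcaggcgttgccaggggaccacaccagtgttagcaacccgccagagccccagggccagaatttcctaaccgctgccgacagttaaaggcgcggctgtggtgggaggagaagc

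A promoter was found for 8205 of the tested genes (71.8%) and for 145 of the 193 genes that rose by 3 or more (75.1%); since under 80% of these had one, a comparison of shares between classes is void, and the counts below describe only the promoters read. This element core stood in 53 of those 145 promoters, in 33 of 458 genes that rose by 1 to 3, in 125 of 4588 that did not pass and in 2 of 132 that fell by 1 or more. Over all 32851 promoters of the same length it stood in 3.443%. A match is a description of letters, not evidence of binding, and its absence from a window says nothing of the factor.

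At the receptor, the change was smaller and went both ways. Ifnar1, which anchors TYK2, was at 27.2 and 25.9 FPKM at 0 h and 28.2 and 30.1 FPKM at 3 h. Jak1, the kinase bound to IFNAR2, was at 37.8 and 33.4 FPKM at 0 h and 37.3 and 38.7 FPKM at 3 h. Neither passed (log2 change 0.13 ± 0.071 and 0.094 ± 0.081, here and below ± SE). Jak2, the kinase of the interferon gamma and many cytokine receptors, went from 13.4 and 10.7 to 62.4 and 65.01 FPKM, a rise of 2.31 ± 0.12 (adjusted p = 1.27e-05). Il10ra, the ligand-binding chain of the interleukin 10 receptor, went from 48.9 and 48.8 to 118 and 121 FPKM (1.27 ± 0.058). Both rose with no overlap between the groups. Il6st, the shared signalling chain gp130, fell from 18.6 and 17.4 to 8.58 and 8.34 FPKM (-1.01 ± 0.074). Ifngr1, of the interferon gamma receptor, went from 26.6 and 21.1 to 11.9 and 12.6 FPKM (-0.90 ± 0.11). Of the 12 receptor chains and Janus kinases listed, 4 rose and 3 fell, with a median of 0.11 beside -0.01 over all genes; with TPM 4 rose and 5 fell, and after quantile normalization 4 and 4.

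The transcription factors of the pathway rose almost as a whole: 14 of 16 STATs, IRFs and partners rose and none fell (median 2.62; 13 rose and 1 fell with TPM, 14 and 1 after quantile normalization), and their share of the reads went from 0.1403% to 0.651%. Batf2, a partner of IRF1 in activated macrophages, went from 0.335 and 0.109 to 58.3 and 59.1 FPKM (5.62 ± 0.10, adjusted p = 6.79e-08). Irf8, the myeloid lineage factor, went from 11.7 and 14.5 to 70.1 and 69.02 FPKM (2.33 ± 0.11). The 3 h libraries of both lay far above the 0 h libraries. Stat6, which serves interleukin 4, was at 61.8 and 61.2 FPKM at 0 h and 54.6 and 57.5 FPKM at 3 h (-0.13 ± 0.061). Irf3, which acts before interferon is made and is held ready as protein, was at 5.65 and 7.91 FPKM at 0 h and 7.43 and 6.602 FPKM at 3 h (0.057 ± 0.15). Neither passed, though Stat6 passed as a fall under both other scales, and the Irf3 groups overlapped.

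The brakes on the receptor moved in a divided way. Socs3, which blocks gp130 signalling, went from 4.66 and 4.28 to 91.7 and 79.9 FPKM (3.99 ± 0.13). Cish, a brake on STAT5, went from 0.1599 and 0.163 to 4.08 and 4.28 FPKM (2.16 ± 0.11). Both rose with wide gaps between the groups. Socs5 moved the other way, from 9.21 and 9.31 to 2.31 and 1.996 FPKM (-1.7 ± 0.081, adjusted p = 6.19e-06), and Trim24, a transcriptional co-regulator, fell from 2.47 and 2.24 to 1.299 and 1.26 FPKM (-0.56 ± 0.10). The phosphatase gene Ptpn11 was at 11.9 and 12.7 FPKM at 0 h and 13.9 and 14.3 FPKM at 3 h and did not pass (adjusted p = 0.059). Over the list 10 of 20 rose and 5 fell, against 9 and 9 with TPM and 9 and 5 after quantile normalization.

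**Figure D2:**
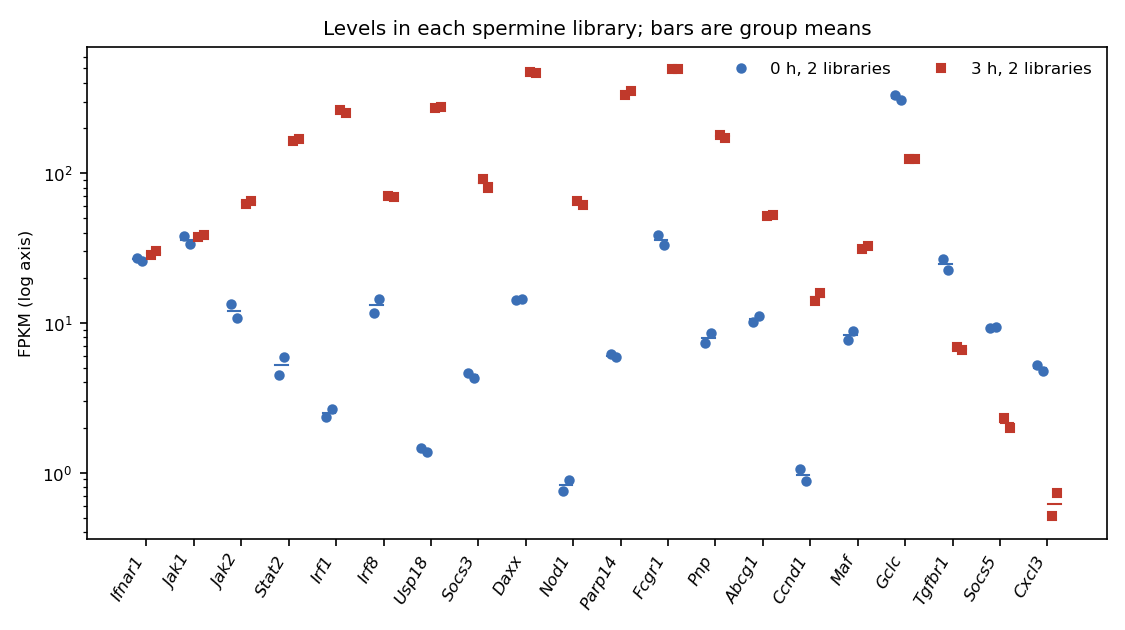
FPKM (log axis) of 20 genes in the 2 libraries at 0 h (blue circles) and the 2 at 3 h (red squares) with spermine; short bars are group means. Replicates lie close together, and the 2 groups separate in 19 of the 20 genes; in Jak1 they overlap.

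Genes that attack viral RNA and its translation rose without exception. All 31 of those tested rose under each of the 3 scales (median 4.63), and their share of the reads went from 0.106% to 5.21%. Ifit2 went from 2.97 and 3.58 to 2223 and 2418 FPKM (9.09 ± 0.13). Ifit3 went from 3.63 and 4.98 to 2470.4 and 2630.0 FPKM (8.92 ± 0.13). Ifit3b, its near copy, went from 0.392 and 1.18 to 443 and 479.5 FPKM (8.05 ± 0.21). Rsad2 reached 2441 and 2638 FPKM and Cmpk2 2328 and 2349 FPKM at 3 h, close to Ifit2 and Ifit3. Oasl1, of the oligoadenylate synthetase family, rose from 4.14 and 5.73 to 1091 and 1073 FPKM (7.52 ± 0.14, adjusted p = 6.53e-08). Oas1a, which makes the activator of RNase L, went from 16.9 and 18.6 to 182 and 182 FPKM (3.29 ± 0.069). Ifit3 with Ifit3b, and Ifit1 with Ifit1bl1, are close copies, and the labels do not say how shared reads were divided.

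Genes listed as blockers of entry and trafficking rose as well, 21 of 21 as deposited, 19 with TPM and 18 after quantile normalization, with none falling. Their median was 2.42, or 3.15 with genes that had no reads at 0 h set at their lower bound. The list also holds interferon-induced genes with other roles, such as Cd69 and Rtp4, so its median is not that of entry blockers alone. Cd69, which retains leukocytes in tissue by binding the receptor S1P1, went from 0.0371 and 0.0422 to 60.9 and 64.6 FPKM (5.94 ± 0.10). Rtp4, an inhibitor of flavivirus replication, went from 6.29 and 6.45 to 293 and 290.2 FPKM (5.31 ± 0.075). Mx2, annotated as a polymorphic pseudogene in this assembly, went from 0.334 and 0.319 to 112 and 111 FPKM (6.4 ± 0.096). Apol9a, an interferon-induced apolipoprotein L, had no read at 0 h and 133 reads in the 3 h libraries together, at least 53.4-fold higher against a floor of 3 reads over the 0 h group. This floor and the intervals on read counts below cover counting error only.

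In the ISG15 system, which tags proteins with a ubiquitin-like modifier, 7 of 8 genes rose. Ube2l6, its conjugating enzyme, went from 12.3 and 10.6 to 124 and 119 FPKM (3.3 ± 0.089). Herc6, the mouse ligase, went from 0.611 and 0.538 to 29.98 and 30.7 FPKM (4.32 ± 0.14). Herc3, a related ligase outside this pathway, fell from 16.1 and 14.8 to 10.5 and 10.7 FPKM (-0.51 ± 0.076). Of 12 ADP-ribosyltransferases and partners 11 rose. Parp14 went from 6.22 and 5.89 to 330.1 and 354 FPKM (5.6 ± 0.092), and Dtx3l with its partner Parp9 from 2.81 and 2.76 to 156 and 165 FPKM (5.42 ± 0.085) and from 4.45 and 4.27 to 133 and 136 FPKM (4.66 ± 0.073). Parp1, the DNA repair enzyme, did not pass at 8.304 and 7.91 FPKM at 0 h and 8.39 and 8.74 FPKM at 3 h (0.070 ± 0.072). With TPM 10 of this list rose and 1 fell, and after quantile normalization 10 and 0; for the ISG15 list it was 7 and 1, and 7 and 1.

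All 14 TRIM ubiquitin ligases tested rose under each scale (median 2.88). Trim21, a cytosolic antibody receptor, went from 1.69 and 1.41 to 53.6 and 56.96 FPKM (4.47 ± 0.082). Trim30a, a brake on Toll-like receptor signals, went from 8.56 and 7.997 to 200.3 and 216 FPKM (4.49 ± 0.13). The guanylate-binding proteins and immunity-related GTPases, which strip the membrane of parasite and bacterial vacuoles, were the list with the largest median, 5.51 over 20 genes, all of which rose under each scale. Iigp1 went from 0.0774 and 0.0881 to 325 and 353 FPKM (8.29 ± 0.12, adjusted p = 3.14e-08). Gbp2 went from 4.295 and 3.802 to 893 and 975 FPKM (7.53 ± 0.12). Ifi47 went from 1.29 and 1.78 to 522 and 525 FPKM (7.7 ± 0.14). Together these genes took 0.00691% of the reads at 0 h and 1.204% at 3 h. Gbp11, with no read at 0 h and 198 at 3 h, was at least 79.5-fold higher, and with such genes at their bound the median was 6.02. Members of this and the Trim30 family are close copies, so values of single members are uncertain.

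Sensors of nucleic acid rose in 24 of 26 cases (23 rose and 2 fell with TPM, 23 and 0 after quantile normalization), with a median of 3.92. The p200 family of DNA-binding proteins led: Ifi206 went from 0.692 and 0.7201 to 193 and 224 FPKM (6.94 ± 0.14). Ifi209 went from 6.28 and 4.697 to 390.3 and 447 FPKM (6.02 ± 0.22). Ifi203 went from 2.39 and 2.03 to 185 and 210.2 FPKM (5.95 ± 0.15). Zbp1, which senses Z-form nucleic acid and can start necroptosis, went from 2.19 and 2.12 to 169 and 179.8 FPKM (5.8 ± 0.11). The 2 tested genes of this list that did not pass, Mavs and Ticam1, encode adaptors that relay such signals. The list holds further adaptors, so this is no contrast of adaptors with sensors. Mavs was at 9.24 and 9.62 FPKM at 0 h and 7.64 and 9.09 FPKM at 3 h. Ticam1 (TRIF) was at 16.7 and 17.3 FPKM at 0 h and 17.2 and 16.9 FPKM at 3 h. Of 15 receptors for bacterial products and their adaptors 2 rose and 3 fell as deposited, 1 and 9 with TPM, and 1 and 5 after quantile normalization, beside 41.7% of all genes that passed as deposited. Cd14, the lipopolysaccharide co-receptor, was at 861 and 908 FPKM at 0 h and 909 and 873 FPKM at 3 h and Tlr4 at 31.2 and 25.2 FPKM at 0 h and 26.5 and 29.6 FPKM at 3 h, both without passing and with overlapping groups. Cd14 passed as a fall under both other scales. Irak3, a brake on this pathway, fell from 5.09 and 4.34 to 2.52 and 2.26 FPKM (-0.75 ± 0.097, adjusted p = 0.000971).

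Cell death genes rose in 26 of 35 cases and fell in 3 (median 0.87; 22 and 4 with TPM, 24 and 5 after quantile normalization). Nod1, a sensor of bacterial cell wall, went from 0.749 and 0.898 to 65.6 and 61.05 FPKM (5.14 ± 0.085, adjusted p = 5.37e-08). Daxx, a histone chaperone of nuclear bodies, went from 14.2 and 14.5 to 474 and 464 FPKM (4.93 ± 0.056). Casp4, the caspase that senses cytosolic lipopolysaccharide, went from 3.32 and 2.82 to 45.1 and 47.5 FPKM (3.54 ± 0.15). Mlkl, the executioner of necroptosis, went from 10.6 and 10.03 to 70.4 and 72.4 FPKM (2.68 ± 0.12). Each rose in both libraries with no overlap. Nlrp3, the inflammasome sensor, was at 33.1 and 32.1 FPKM at 0 h and 31.5 and 31.3 FPKM at 3 h and did not pass (-0.052 ± 0.059; it passed as a fall under both other scales), and Nlrc4, the sensor of flagellin, fell from 2.03 and 1.71 to 0.8303 and 0.827 FPKM (-0.65 ± 0.13).

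Chemokines moved in both directions. Of those that attract monocytes, Ccl2 went from 2.65 and 4.203 to 119 and 109.6 FPKM (4.73 ± 0.16). Ccl7 went from 1.81 and 2.33 to 63.8 and 71.98 FPKM (4.49 ± 0.17), while Ccl12, with no read at 0 h, reached 95.6 and 98.2 FPKM and was at least 603-fold higher. For the T cell chemokines, Cxcl9 went from 0.0601 and 0.0547 to 16.8 and 17.02 FPKM (4.08 ± 0.11), and Cxcl11, annotated as a polymorphic pseudogene, from 0 reads to 4.25 and 3.61 FPKM, at least 172.3-fold higher. Both neutrophil chemokines named here fell: Cxcl2 went from 21.1 and 18.2 to 7.91 and 6.26 FPKM (-1.36 ± 0.12, adjusted p = 0.000147). Cxcl3 went from 5.195 and 4.79 to 0.5102 and 0.733 FPKM (-1.89 ± 0.12, adjusted p = 2.9e-05). Ccl9 and Ccl6, expressed at rest, did not pass. Ccl9 was at 149 and 141 FPKM at 0 h and 139 and 145 FPKM at 3 h, and Ccl6 at 57.6 and 53.8 FPKM at 0 h and 61.8 and 62.9 FPKM at 3 h. Ccl9 passed as a fall under both other scales. In all 11 of 16 rose and 3 fell; the counts were 10 and 4 with TPM and 10 and 5 after quantile normalization.

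Of 19 cytokine and TNF family genes 14 rose and none fell (13 with TPM and 14 after quantile normalization, again with none falling). Il15, which sustains NK and memory T cells, went from 4.700 and 3.14 to 89.5 and 96.3 FPKM (4.27 ± 0.16). Il27 went from 0.177 and 0.215 to 6.99 and 6.605 FPKM (2.7 ± 0.085). Tnfsf10, the death ligand TRAIL, went from 0.0344 and 0.0418 to 41.1 and 42.8 FPKM (5.37 ± 0.091). Tgfb1 was at 50.7 and 66.9 FPKM at 0 h and 79.3 and 72.8 FPKM at 3 h, and Ebi3, which pairs with Il27, at 12.1 and 15.3 FPKM at 0 h and 17.1 and 17.4 FPKM at 3 h; neither passed. Targets and regulators of NF-κB moved less: 12 of 22 rose and 1 fell as deposited, 7 and 5 with TPM, and 9 and 2 after quantile normalization. Icam1, the integrin ligand, went from 5.04 and 6.15 to 44.2 and 44.3 FPKM (2.78 ± 0.098). Cd83 went from 18.1 and 17.04 to 60.2 and 61.2 FPKM (1.73 ± 0.096). Rela and Nfkb2, which encode subunits, did not pass. Rela was at 57.04 and 64.6 FPKM at 0 h and 57.7 and 57.4 FPKM at 3 h, and Nfkb2 at 28.5 and 32.5 FPKM at 0 h and 36.9 and 31.7 FPKM at 3 h. Rela passed as a fall under both other scales.

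For antigen display, 23 of 26 genes of the MHC class I route rose and none fell, with a median of 1.97 (21 and 0 with TPM, 21 and 2 after quantile normalization). Nlrc5, the transactivator of these genes, went from 2.403 and 2.65 to 42.1 and 43.4 FPKM (3.63 ± 0.12). Psmb9, a subunit of the immunoproteasome, went from 2.72 and 2.25 to 37.95 and 32.9 FPKM (3.38 ± 0.11), and the nonclassical heavy chain H2-T22 from 10.2 and 9.39 to 124 and 128 FPKM (3.56 ± 0.063). The classical heavy chain H2-K1, abundant at rest, rose less, from 686 and 747 to 1239 and 1118 FPKM (0.72 ± 0.091, adjusted p = 0.000876), and the chaperones Calr and Pdia3 did not pass (0.18 ± 0.068 and 0.035 ± 0.12). The constitutive proteasome had 5 of 25 subunits up and 5 down, which became 0 and 15 with TPM and 1 and 12 after quantile normalization, so no direction is given for it. In MHC class II 6 of 10 rose and 2 fell, against 1 and 2 with TPM and 2 and 3 after quantile normalization. The peptide exchanger chain H2-DMa went from 12.2 and 12.03 to 18.1 and 17.96 FPKM (0.54 ± 0.073, with an adjusted p of up to 0.0547 over the alternatives). The class II chain H2-Ab1 did not pass at 66.3 and 80.9 FPKM at 0 h and 104 and 95.9 FPKM at 3 h (adjusted p = 0.0558). Their master regulator Ciita did not pass the filter of 1 FPKM in 2 libraries.

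Of 20 costimulatory and checkpoint molecules 10 rose and 1 fell (9 and 5 with TPM, 10 and 4 after quantile normalization). Cd274 (PD-L1) went from 36.2 and 32.4 to 556 and 586 FPKM (4.02 ± 0.098). Cd40 went from 0.745 and 0.404 to 36.95 and 37.4 FPKM (4.61 ± 0.10). Slamf8 went from 0.392 and 0.286 to 10.1 and 9.86 FPKM (3.04 ± 0.11). Lgals9 (galectin 9) went from 33.6 and 33.01 to 186 and 179 FPKM (2.42 ± 0.065). These 4 rose with no overlap between the groups, whereas Cd48 and Lilrb4a did not pass (0.10 ± 0.19 and -0.12 ± 0.16; Lilrb4a passed as a fall under both other scales). Among Fc and complement receptors, 11 of 16 rose and 2 fell (6 and 2 with TPM, 5 and 2 after quantile normalization). Fcgr1, the high-affinity IgG receptor, went from 38.4 and 32.9 to 493 and 492 FPKM (3.76 ± 0.083, adjusted p = 1.48e-07). Fcgr4 went from 47.8 and 42.2 to 214 and 229 FPKM (2.28 ± 0.097). C5ar1, the receptor for the anaphylatoxin C5a, fell from 132 and 126 to 77.3 and 76.2 FPKM (-0.74 ± 0.061), while C3ar1, for C3a, rose from 212 and 175 to 368 and 394 FPKM (0.98 ± 0.13).

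Metabolic enzymes tied to macrophage activation rose in 17 of 21 cases (median 1.52; 15 rose and 1 fell with TPM, 15 and 2 after quantile normalization). Acod1, which makes itaconate, went from 4.33 and 5.39 to 275 and 292 FPKM (5.61 ± 0.14). Ch25h, which makes the antiviral oxysterol 25-hydroxycholesterol, went from 0.537 and 0.529 to 40.7 and 42.7 FPKM (4.8 ± 0.087). Pnp, a purine salvage enzyme, went from 7.31 and 8.53 to 181 and 172 FPKM (4.31 ± 0.11). Nos2, the inducible nitric oxide synthase, rose but stayed low: 1 read in the 0 h libraries and 98 in the 3 h libraries, a ratio of 118.1 with an exact 95% interval from 20.7 to 4712, and a level of 0.615 and 0.917 FPKM.

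Polyamine enzymes are of interest because the cells were given spermine. A pair of enzymes that break polyamines down rose: Sat1, spermidine/spermine acetyltransferase, went from 161 and 154 to 299.8 and 301 FPKM (0.93 ± 0.067, adjusted p = 5.56e-05). Smox, spermine oxidase, went from 25.3 and 31.4 to 72.8 and 66.1 FPKM (1.27 ± 0.18, adjusted p = 0.00167). The polyamine transporter gene Atp13a3 fell from 16.9 and 16.1 to 7.57 and 7.78 FPKM (-1.01 ± 0.088). On the synthesis side, Odc1, the rate-limiting decarboxylase, was at 45.1 and 43.5 FPKM at 0 h and 44.8 and 44.5 FPKM at 3 h. Srm, spermidine synthase, was at 7.59 and 8.49 FPKM at 0 h and 6.97 and 5.69 FPKM at 3 h, and Sms, spermine synthase, at 5.13 and 4.86 FPKM at 0 h and 4.93 and 3.89 FPKM at 3 h. None of these passed as deposited, while Odc1 and Srm passed as falls under both other scales. Oaz1, the antizyme that binds ODC1, did not pass either, with its 0 h libraries far apart at 136 and 193 FPKM. Amd1 fell from 8.68 and 7.37 to 4.82 and 5.06 FPKM (-0.60 ± 0.13, adjusted p = 0.0103), with an adjusted p of up to 0.0627 over the alternatives. Of the 19 genes 4 rose and 3 fell (2 and 8 with TPM, 3 and 6 after quantile normalization), beside 19.7% and 22.1% of all genes as deposited. Sat1 and Smox rose with PBS too, by 1.09 and 1.11, and the difference between both responses did not pass for either (adjusted p = 0.307 and 0.719).

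Targets of NRF2, the oxidant-response factor, fell in 12 of 28 cases and rose in 3 as deposited, beside 22.1% and 19.7% of all genes. The counts were 20 and 2 with TPM, and 20 and 2 after quantile normalization, scales on which falls also outnumbered rises over all genes. Gclc, the catalytic subunit of glutathione synthesis, fell from 329.8 and 309 to 124 and 124 FPKM (-1.35 ± 0.062, adjusted p = 5.15e-06). Slc7a11, the cystine importer, went from 43.9 and 36.99 to 25.7 and 24.9 FPKM (-0.65 ± 0.10). Among those that rose were regulators of NRF2: Bach1, a repressor of NRF2 targets, went from 43.8 and 42.9 to 107 and 112 FPKM (1.31 ± 0.062). Keap1, which targets NRF2 for destruction, went from 11.8 and 14.5 to 30.6 and 29.4 FPKM (1.14 ± 0.15). Hmox1 and Fth1, which degrade heme and store iron, did not pass: Hmox1 was at 11283 and 10682 FPKM at 0 h and 11541 and 11790.0 FPKM at 3 h, and Fth1 at 24038 and 26021 FPKM at 0 h and 26677 and 25340.0 FPKM at 3 h. Of the genes for metal handling, the zinc exporter Slc30a1 rose from 14.3 and 12.9 to 40.9 and 40.4 FPKM (1.51 ± 0.077) and metallothionein Mt1 from 65.2 and 59.96 to 158 and 136 FPKM (1.22 ± 0.12). The iron exporter Slc40a1 (ferroportin) fell from 124 and 109.7 to 73.2 and 74.1 FPKM (-0.66 ± 0.12).

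In the integrated stress response 5 of 23 rose and 1 fell, and in the unfolded protein response 4 and 4 of 21 (1 and 7, and 3 and 11, with TPM; 2 and 5, and 2 and 12, after quantile normalization). Over all genes 19.7% rose and 22.1% fell as deposited. In the integrated stress response Atf3 rose from 249 and 274 to 573 and 544 FPKM (1.09 ± 0.072) and Cebpg fell from 9.58 and 9.61 to 6.02 and 6.05 FPKM (-0.59 ± 0.076). Atf4, the central factor, stood at 167 and 167 FPKM at 0 h and 164 and 169.6 FPKM at 3 h and did not pass, though it passed as a fall under both other scales. In the unfolded protein response Herpud1, of the degradation arm, fell from 9.45 and 8.81 to 3.98 and 4.88 FPKM (-0.90 ± 0.099) and Syvn1, its ligase, rose from 14.2 and 15.1 to 26.4 and 25.1 FPKM (0.77 ± 0.12). Heat shock chaperones fell in 8 of 16 cases and rose in 3 (10 and 3 with TPM, 9 and 3 after quantile normalization). Hsph1 went from 13.7 and 12.8 to 6.48 and 6.803 FPKM (-0.90 ± 0.076). Hspa1a, a near-identical copy of Hspa1b, rose from 8.06 and 12.3 to 29.2 and 25.8 FPKM (1.37 ± 0.19).

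Lipid genes fell on the side of synthesis. Of 24 cholesterol and fatty acid genes 13 fell and 2 rose (median -0.38; 18 and 1 with TPM, 17 and 1 after quantile normalization). Stard4, which carries cholesterol, fell from 12.4 and 11.1 to 4.23 and 3.404 FPKM (-1.4 ± 0.15). Sqle, squalene epoxidase, went from 33.00 and 30.4 to 16.01 and 18.8 FPKM (-0.83 ± 0.090). Insig1, a brake on sterol synthesis, rose from 99.2 and 100.2 to 122 and 118 FPKM (0.27 ± 0.062), but changed sign with TPM (-0.068) and after quantile normalization (-0.22). Abcg1, a sterol exporter, went from 10.2 and 11.03 to 51.4 and 52.5 FPKM (2.19 ± 0.079, adjusted p = 1.48e-06). Npc1, which releases cholesterol from lysosomes, fell from 53.99 and 52.2 to 37.9 and 38.5 FPKM (-0.47 ± 0.057). Soat1, which esterifies it, went from 47.05 and 42.4 to 28.5 and 30.2 FPKM (-0.59 ± 0.085). In glycolysis 7 of 27 rose and 9 fell (4 and 17 with TPM, 5 and 16 after quantile normalization). The hexokinases Hk2 and Hk3 rose, from 21.6 and 22.8 to 54.3 and 50.7 FPKM (1.21 ± 0.082) and from 70.4 and 80.1 to 197 and 194 FPKM (1.37 ± 0.093), while Pkm and Aldoa did not pass (0.20 ± 0.071 and -0.13 ± 0.079; Aldoa passed as a fall under both other scales).

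Of 27 cell cycle genes 8 rose and 4 fell (6 and 8 with TPM, 6 and 5 after quantile normalization). Ccnd1 (cyclin D1) rose from 1.06 and 0.876 to 13.9 and 15.9 FPKM (3.01 ± 0.12) and the inhibitor Cdkn1a (p21) from 147 and 159 to 638 and 628 FPKM (2.04 ± 0.077), while Myc fell from 8.09 and 7.69 to 2.94 and 2.85 FPKM (-1.19 ± 0.12). Cdk2 went from 5.58 and 6.56 to 3.66 and 3.64 FPKM (-0.60 ± 0.091). Gadd45g and Fas, which like Cdkn1a are listed as targets of p53, rose from 38.9 and 57.3 to 421 and 358 FPKM (3.01 ± 0.22) and from 2.04 and 2.14 to 8.21 and 9.02 FPKM (1.64 ± 0.085). Plk3, a stress kinase, fell from 29.8 and 31.9 to 12.8 and 13.1 FPKM (-1.19 ± 0.084). Immediate early factors rose in 17 of 22 cases (13 with TPM, 13 after quantile normalization), among them Mafk from 18.8 and 22.6 to 112 and 111 FPKM (2.38 ± 0.11). Fos went from 85.5 and 91.2 to 202 and 200.4 FPKM (1.18 ± 0.060). Fosl1, a Fos relative, fell from 22.4 and 22.4 to 12.9 and 11.1 FPKM (-0.85 ± 0.11). Of 15 brakes on MAP kinases 8 rose and 4 fell (5 and 4 with TPM, 6 and 4 after quantile normalization). Spred1 went up from 6.81 and 5.97 to 29.8 and 31.8 FPKM (2.11 ± 0.093) and Dusp3 went down from 32.4 and 34.4 to 17.6 and 19.7 FPKM (-0.81 ± 0.083). Zfp36 (tristetraprolin), which destabilises cytokine mRNA, rose from 226 and 263 to 781 and 745 FPKM (1.64 ± 0.091), and among 17 such genes 6 rose and 7 fell (4 and 10 with TPM, 4 and 8 after quantile normalization). Zc3h12c, of the Regnase family, fell from 6.31 and 5.59 to 2.34 and 2.14 FPKM (-1.1 ± 0.092).

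Of 24 macrophage lineage factors and surface markers 10 rose and 3 fell, against 6 and 6 with TPM and 7 and 9 after quantile normalization. Csf1r, the growth factor receptor, was at 709 and 730.0 FPKM at 0 h and 759 and 764 FPKM at 3 h. Adgre1 (F4/80) was at 309 and 267 FPKM at 0 h and 316 and 321 FPKM at 3 h, and Lyz2 (lysozyme) at 9709 and 9180.3 FPKM at 0 h and 9832 and 9901 FPKM at 3 h. None passed, and the log2 changes of 0.082 ± 0.060, 0.15 ± 0.082 and 0.064 ± 0.088 change sign with TPM or quantile normalization; Csf1r passed as a fall under both. The transcription factor Maf rose from 7.69 and 8.88 to 30.95 and 32.7 FPKM (1.82 ± 0.11, adjusted p = 2.07e-05) and the efferocytosis receptor Mertk from 6.46 and 5.62 to 19.8 and 21.03 FPKM (1.61 ± 0.097). The myeloid factor Cebpa fell from 105 and 152 to 56.01 and 50.04 FPKM (-1.24 ± 0.26, adjusted p = 0.00826, up to 0.0529 over the alternatives) and Tfeb, which drives lysosome genes, from 7.03 and 8.62 to 3.11 and 2.55 FPKM (-1.2 ± 0.19). Of 21 scavenger and lectin receptors 8 rose and 3 fell (3 and 7 with TPM, 4 and 6 after quantile normalization). Mrc1, the mannose receptor, rose from 16.5 and 14.9 to 36.6 and 35.02 FPKM (1.14 ± 0.10). Siglec1, a sialic acid lectin, went from 29.1 and 29.9 to 51.8 and 56.3 FPKM (0.85 ± 0.070). Of 29 G protein-coupled receptors 12 rose and 8 fell (10 and 10 with TPM, 13 and 9 after quantile normalization). Ccrl2, which binds chemerin, rose from 8.39 and 8.46 to 131 and 131 FPKM (3.81 ± 0.075), and Ptger2, a receptor for prostaglandin E2, fell from 5.85 and 6.500 to 1.42 and 1.18 FPKM (-1.64 ± 0.096). Of 20 TGF-β receptors and Smads 4 rose and 4 fell (2 and 13 with TPM, 2 and 9 after quantile normalization). As deposited this is close to the 19.7% and 22.1% over all genes, so no direction is given for the list. Eng (endoglin) rose from 5.49 and 6.07 to 17.99 and 16.96 FPKM (1.45 ± 0.075) and Smad2, a mediator of TGF-β signals, fell from 18.7 and 17.3 to 10.5 and 9.96 FPKM (-0.76 ± 0.080).

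Housekeeping lists had medians near 0, 0.27 for ribosomal proteins and 0.22 for oxidative phosphorylation, and their direction changed with the scale. Of 78 ribosomal protein genes 27 rose and 1 fell as deposited, but 1 and 9 with TPM and 0 and 28 after quantile normalization. Nuclear genes for oxidative phosphorylation gave 18 up and 1 down of 88, then 1 and 7, and 4 and 6. The lysosome and autophagy list gave 11 and 4 of 36, then 1 and 21, and 3 and 19; Ctsc, a lysosomal protease that activates others, rose from 19.9 and 16.99 to 74.9 and 80.3 FPKM (2.02 ± 0.10). None of the 13 mitochondrially encoded mRNAs passed with limma on the deposited values or with limma voom, and 0 had an unadjusted p under 0.05; mt-Co1, of respiratory complex IV, was at 6357 and 5083 FPKM at 0 h and 5309.5 and 5780.5 FPKM at 3 h. With TPM 4 and after quantile normalization 6 of them fell.

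**Figure D3:**
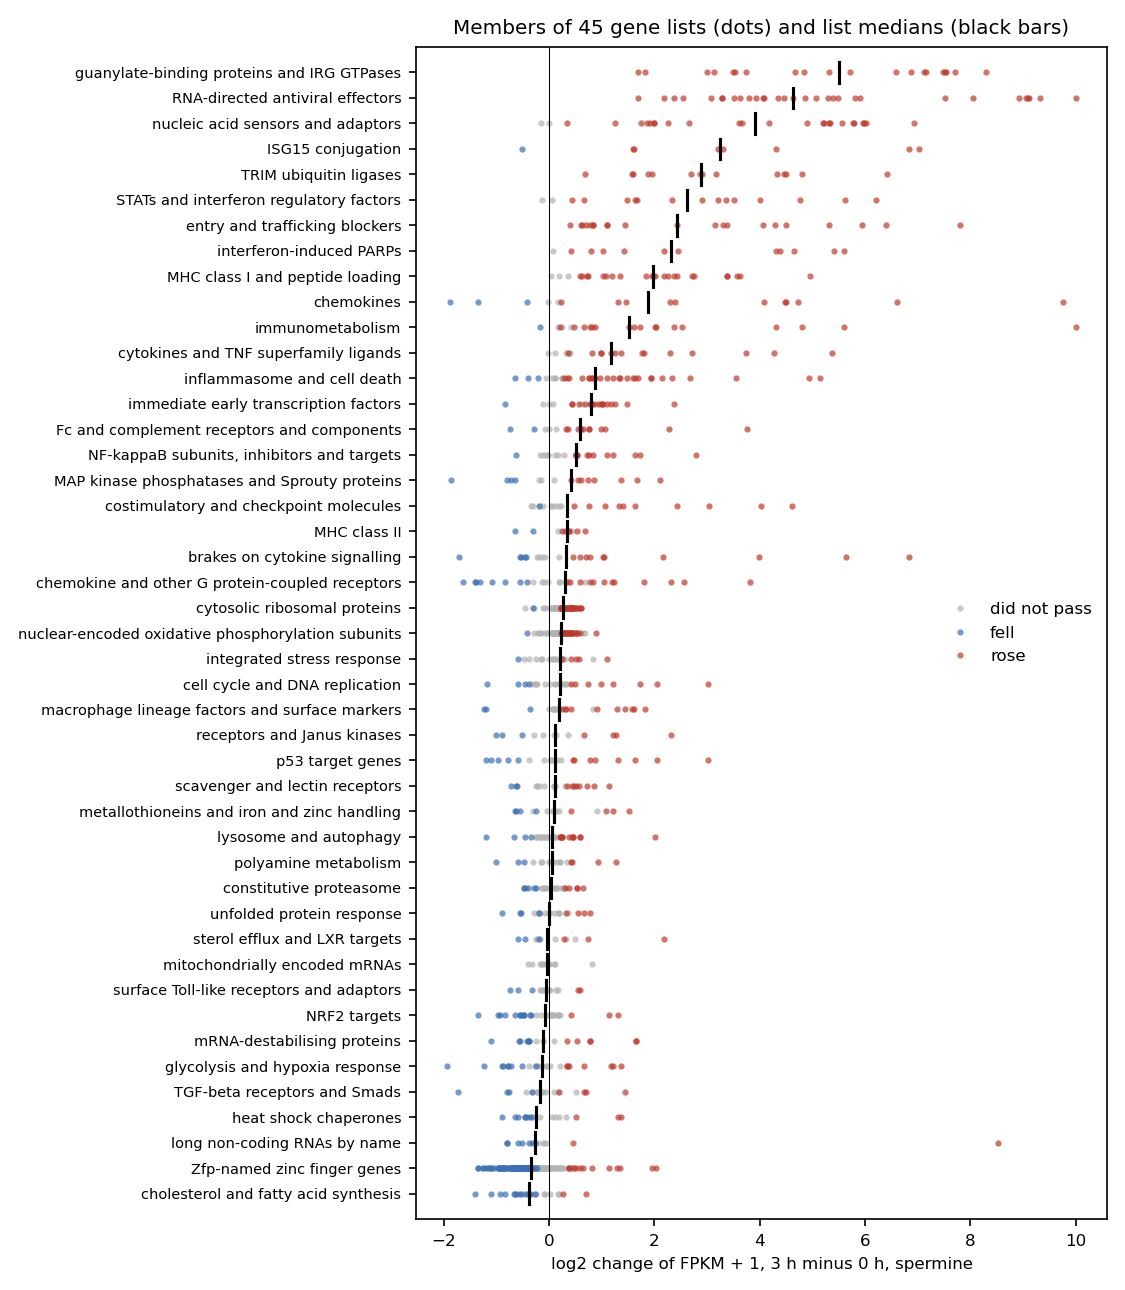
Each dot is a tested gene of the list named on the left, placed at its log2 change of FPKM + 1 from 0 h to 3 h with spermine; red rose, blue fell, grey did not pass, and the black bar is the list's median. Lists run from a median of -0.38 (cholesterol and fatty acid synthesis) to 5.51 (guanylate-binding proteins and IRG GTPases).

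Among protein-coding genes, the 12 largest falls lay between -1.93 and -1.63 and came from several pathways. Sephs2, which makes the selenium donor for selenoproteins, fell from 60.8 and 52.5 to 18.1 and 16.1 FPKM (-1.67 ± 0.14). Ptpre, a tyrosine phosphatase, went from 19.6 and 18.01 to 5.21 and 5.55 FPKM (-1.63 ± 0.078). Mfhas1, a leucine-rich repeat protein, fell from 13.02 and 14.6 to 3.45 and 3.77 FPKM (-1.68 ± 0.085). Cdk17 went from 9.27 and 8.42 to 2.14 and 2.07 FPKM (-1.66 ± 0.084). Mphosph10, a factor of ribosomal RNA processing, went from 11.1 and 9.88 to 2.55 and 2.497 FPKM (-1.7 ± 0.13). In each the 3 h libraries lay below the 0 h libraries with no overlap; the largest adjusted p among these was 0.000107, of Sephs2. The largest fall of a non-coding gene was that of the small nucleolar RNA Snord72, from 8.199 and 7.47 to 0.881 and 0 FPKM (adjusted p = 0.00207). RNAs of this kind guide the modification of ribosomal RNA. Snord72 is 1 of the 5 genes that fell by 2 or more. Together these took 0.00034% and 0.00032% of the reads in the 0 h libraries, so its fall rests on few reads.

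Part of the strongly rising genes lay near one another, and how often other genes do so was not tested. When genes that rose by 3 or more were joined across gaps of at most 200 kb, 9 runs of 4 or more genes held 59 of the 193 (30.57%), and 58 or 61 with gaps of at most 100 or 500 kb. Positions are those of the deposited table (GRCm38). The longest, on chromosome 1 from 173468485 to 174031810, held 12 such genes among 15 tested, from Ifi206 to Ifi205, all of the p200 family or its pseudogenes apart from Gm44339. On chromosome 11 from 48861968 to 49135387 it was 9 of 12, from Irgm1 to Ifi47, and from 82951349 to 83215154 it was 8 of 13, with the Schlafen genes Slfn1 to Slfn5, Slfn8 and Slfn9. On chromosome 19 from 34473786 to 34650009 there were 6 of 9, namely Ch25h, Ifit2, Ifit3, Ifit1bl1, Ifit3b and Ifit1. On chromosome 7 from 104244457 to 104507849 the Trim30 cluster had 6 of 12. On chromosome 5 from 120730333 to 120907521 the Oas cluster 5 of 8. On chromosome 3 from 142493978 to 142638008 the Gbp cluster 4 of 5, and on chromosome 14 from 59276913 to 59440884 the Phf11 genes with Setdb2 4 of 5. The remaining run held Iigp1 and 4 further genes of 6 tested. Neighbouring genes in these runs are often copies of one another, and without a stated strand setting reads of overlapping genes cannot be told apart.

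**Figure D4:**
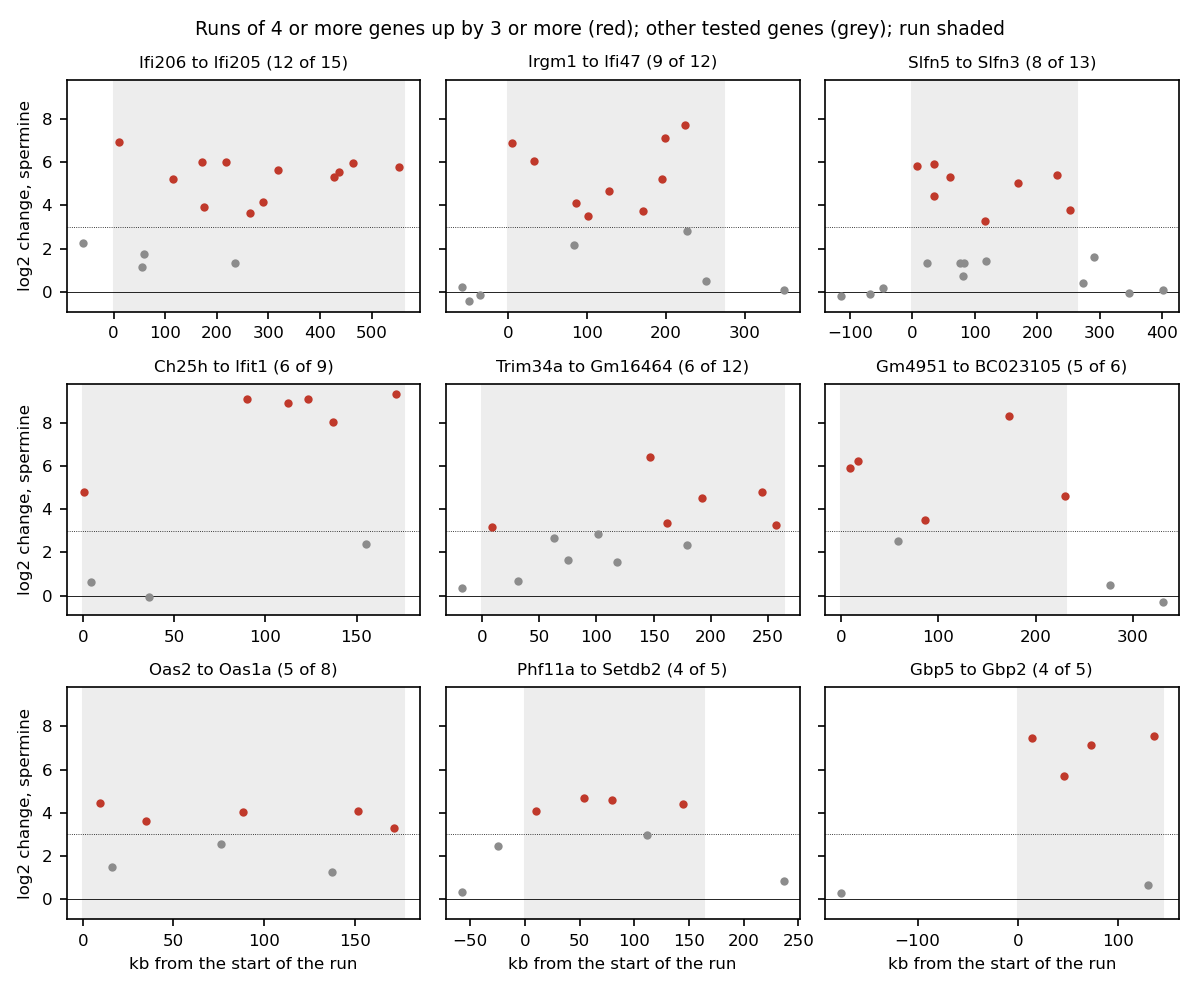
Each panel is 1 of 9 runs; the horizontal axis is the distance of a gene's middle from the start of the run (kb) and the vertical axis its log2 change with spermine. Red points are genes that rose by 3 or more, grey points the other tested genes in or within 100 kb of the run, the shading marks the run, and the dotted line marks 3. In the Ifit run 5 of the red genes lie above 8 while Lipa, beside them, is at -0.071 and did not pass.

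The response with PBS was set against the one with spermine; these share no library. With PBS 2807 genes rose (24.6%) and 2854 fell (25.0%). Of the 2248 genes that rose with spermine 1850 also rose with PBS, which is 82.3% of the spermine list and 65.9% of the PBS list, and of the 2520 that fell 1747 also fell, 69.3% and 61.2%. Opposite calls were rare, 36 and 23 genes. The test of the difference between the responses passed for 1550 genes (13.6%), 665 with a higher (5.82%) and 885 with a lower (7.75%) change with spermine. This split turned from 42.9% higher as deposited to 67.13% with TPM, which raised the median difference by 0.14, and to 49.56% after quantile normalization. Of the 193 strong risers 23 rose more and 59 rose less with spermine, and in 111 the difference did not pass. The median change over all 193 was 4.39 with spermine and 4.65 with PBS. These genes were picked by their change with spermine, which favours a higher change there. Genes that rose by 3 or more only with PBS are left out, so neither the split nor the medians compare the treatments evenly. The counts of 665 and 885 both moved by more than 1.5 times when any 1 of 6 libraries was left out (all but the second PBS library at 3 h and the second spermine library at 0 h). They fell to as few as 222 higher and 298 lower without the second PBS library at 0 h. The genes given with both responses in the next 3 paragraphs are therefore ones whose difference passed under every alternative.

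Of the 46 gene lists, chemokines had the lowest median difference, -1.16 (median change 1.88 with spermine and 3.62 with PBS), with a lower change in 9 of 16 genes and a higher one in 0. These list values are given as deposited only. Of the lower ones Ccl5 kept the call under every alternative, while Cxcl3, Cxcl9, Cxcl10, Cxcl11, Ccl2 and Ccl7 lost it under some. Ccl5, which attracts T cells, went from 6.98 and 6.59 to 21.2 and 19.7 FPKM with spermine and from 4.87 and 4.03 to 87.8 and 80.1 FPKM with PBS, a difference of -2.5 ± 0.14 (adjusted p = 0.00122). The 4 libraries at 3 h do not overlap between the treatments. Ch25h reached 40.7 and 42.7 FPKM with spermine and 98.03 and 98.9 FPKM with PBS (difference -1.73 ± 0.12), so that here too the PBS libraries were higher at 3 h. Its mean 0 h level was lower with PBS than with spermine, which adds to the difference. Cd274 was higher with spermine at both times, 36.2 and 32.4 against 10.3 and 9.42 FPKM at 0 h and 556 and 586 against 443 and 380.3 FPKM at 3 h, but its change was smaller (difference -1.22 ± 0.14). Fcgr4 went from 47.8 and 42.2 to 214 and 229 FPKM with spermine and from 38.6 and 34.8 to 418 and 372 FPKM with PBS (-1.11 ± 0.14). The long non-coding RNA AW112010, an interferon-induced transcript of macrophages, went from 2.59 and 2.499 to 50.5 and 52.5 FPKM with spermine and from 1.64 and 1.804 to 316 and 266 FPKM with PBS (-2.85 ± 0.13, adjusted p = 0.00122). Of the 19 cytokines 9 had a lower and 2 a higher change with spermine as deposited. Under limma voom Il27 and Tnfsf10, among the lower ones, and Il6, among the higher ones, lost the call.

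Other genes had a higher change with spermine. Irf1, the factor that drives a second set of interferon genes, went from 2.34 and 2.65 to 262 and 253 FPKM with spermine and from 6.33 and 5.84 to 141 and 151 FPKM with PBS (difference 1.83 ± 0.11, adjusted p = 0.00132). The spermine libraries were lower at 0 h and higher at 3 h. Irf8 reached 70.1 and 69.02 FPKM against 61.9 and 72.1 FPKM (1.27 ± 0.16), and Tap1, which pumps peptides to MHC class I, 202 and 198 against 184 and 218 FPKM (1.11 ± 0.15). Dtx3l reached 156 and 165 against 237 and 209 FPKM (1.1 ± 0.12) and the GTPase gene Igtp 652 and 673 against 579.7 and 521 FPKM (0.97 ± 0.11). At 3 h both spermine libraries lay above both PBS libraries for Irf1 and Igtp, while for Irf8, Tap1 and Dtx3l they did not. In all of these genes, Irf1 and Igtp included, the mean 0 h level was lower with spermine, which adds to the difference. Irf8 was at 11.7 and 14.5 FPKM with spermine and 30.97 and 32.4 FPKM with PBS at 0 h, Tap1 at 4.92 and 6.04 against 12.9 and 12.96 FPKM and Dtx3l at 2.81 and 2.76 against 10.8 and 9.72 FPKM.

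In several of these genes the level at 0 h differed too. Maf was at 7.69 and 8.88 FPKM with spermine and 21.9 and 25.9 FPKM with PBS at 0 h, and at 30.95 and 32.7 against 25.3 and 28.1 FPKM at 3 h. It rose by 1.82 with spermine and did not pass with PBS (difference 1.67 ± 0.15, adjusted p = 0.00234). Cx3cr1, the fractalkine receptor, was at 1.33 and 1.32 FPKM with spermine and 11.5 and 11.5 FPKM with PBS at 0 h, and at 1.52 and 1.86 against 1.84 and 1.58 FPKM at 3 h. It fell with PBS, a log2 change of -2.21, and did not pass with spermine (difference 2.42 ± 0.13, adjusted p = 0.00122). Zfp36l1, an mRNA decay factor, went from 5.29 and 6.84 to 9.15 and 9.09 FPKM with spermine and from 15.2 and 15.4 to 4.15 and 5.03 FPKM with PBS (difference 2.08 ± 0.17). Its rise with spermine reached an adjusted p of 0.156 under another scale, while the difference passed under every alternative. Sesn1, a sestrin induced by p53, was at 2.82 and 2.98 FPKM at 0 h and 1.27 and 1.25 FPKM at 3 h with spermine and at 21.8 and 20.1 FPKM at 0 h and 2.57 and 2.19 FPKM at 3 h with PBS. It fell in both, and the change was smaller with spermine (difference 1.92 ± 0.12). Trp53inp1, also a p53 target, fell with spermine from 32.4 and 26.4 to 12.2 and 13.9 FPKM and rose with PBS from 9.14 and 8.44 to 13.7 and 11.03 FPKM (difference -1.55 ± 0.19, adjusted p = 0.00479). The part of the 0 h level in these differences was not tested. Fgd3, an activator of the GTPase Cdc42, was at 31.5 and 31.9 FPKM with spermine and 32.4 and 35.4 FPKM with PBS at 0 h, and its libraries stood further apart at 3 h, at 10.01 and 10.3 FPKM with spermine and 3.71 and 4.04 FPKM with PBS (difference 1.29 ± 0.10).

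**Figure D5:**
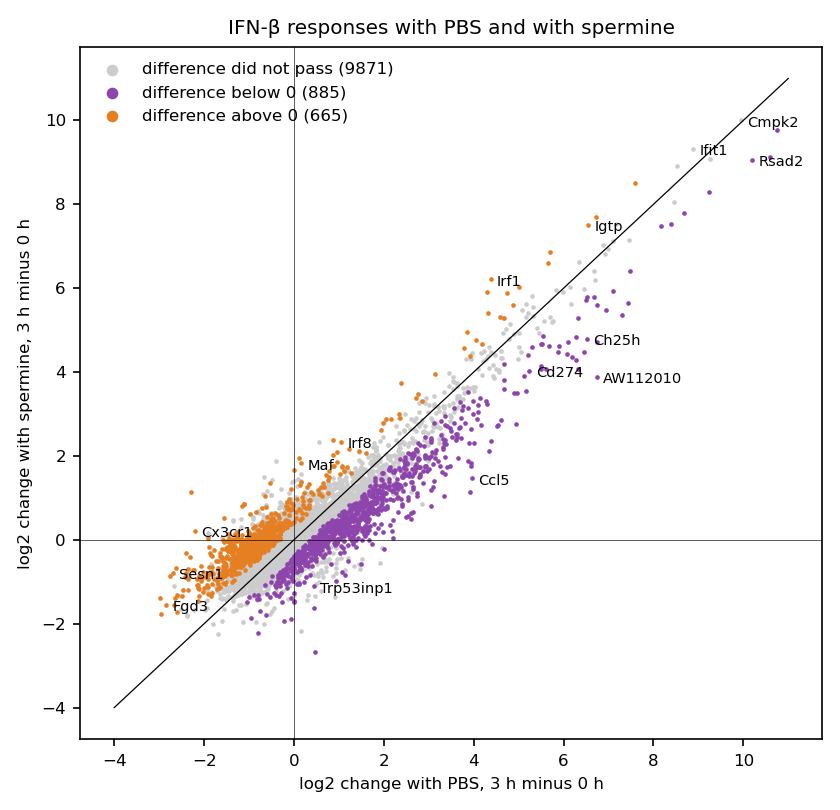
Each point is a gene, at its log2 change of FPKM + 1 from 0 h to 3 h with PBS (horizontal) and with spermine (vertical); the diagonal marks equal changes. Orange and purple mark the 665 and 885 genes whose change with spermine was higher or lower by the test of the difference; Irf1 and Irf8 lie above the diagonal, Ccl5, Ch25h and AW112010 below it, and Cmpk2 close to it.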

How the data were processed

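RNA selected with poly-T beads was reverse transcribed with random hexamers and sequenced in 8 libraries, 2 for each of 4 groups, per the labels' protocols. Per the submitters' processing notes the tools were DESeq2 1.20.0, featureCounts 1.5.0-p3 and HISAT2 2.0.5, besides fastp and CASAVA 1.8. The builds named are mm10 and GRCm38. No role, order or strand setting is stated. The authors deposited FPKM per gene, whose column headers name each library. Multiplied by gene length, all values were whole multiples of 1 step per library (within 0.001 of a read), which gave back 15723437 to 17744844 reads per library; the steps follow median-of-ratios size factors. Of the rows, 103 share a symbol with a row of as many or more reads and were named by their identifier.

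The 11421 genes reaching 1 FPKM in 2 or more libraries were fitted with limma 3.58.1 (R 4.3.3; trend, empirical Bayes) on log2(FPKM + 1), which understates changes of low genes, with 4 group means and 4 residual degrees of freedom; 2-sided p-values were adjusted by Benjamini-Hochberg. Contrasts were 3 h minus 0 h with spermine, the same with PBS, and their difference. Alternatives were a pseudocount of 0.1, no filter or a filter of 5 FPKM, TPM, quantile normalization, no trend, only the spermine groups, a replicate block, limma voom on the rebuilt reads and leaving out each library; crossed replicate numbers were added after seeing the data. Tables and figures were made with Python 3.11.15 (pandas 2.3.3, scipy 1.17.1, matplotlib 3.10.9). Promoters are those of RefSeq on GRCm38.p6.

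The 46 gene lists and the comparison were chosen with earlier results of these data known. Genes named are a set of pathway genes always named, the 12 protein-coding genes of the largest rise and fall, 3 rising and 3 falling non-coding genes, per list up to 4 that passed with the largest change, 2 against the list's majority and 2 of high level that did not pass, the 8 largest differences each way, and the 5 most abundant genes that rose by 1 or more. Cell type markers, genes in the neighbourhood runs and Lipa are named outside this rule. Results for some genes and for 1 list are not reported here.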

Additional observations from a re-analysis of the deposited data

Results flagged for a closer look

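The test of the difference between the IFN-β responses (spermine minus PBS, log2 of FPKM + 1, limma with Benjamini-Hochberg adjustment) passed for 32 of the genes that were always named. Over all genes tested it passed for 13.6%. The always-named genes were picked as pathway genes, so their count is not read against that share. The call held under every alternative for 10 of them: Rsad2 at -1.13, Ccl5 at -2.50, Cd274 at -1.22, Ch25h at -1.73, Irf1 at 1.83, Irf8 at 1.27, Igtp at 0.97, Tap1 at 1.11, Fos at 0.64 and Cx3cr1 at 2.42. The highest adjusted p of each over the alternatives lay between 0.0127 (Ccl5 and Cx3cr1) and 0.03995 (Tap1), with Fos at 0.0393, Irf8 at 0.0335, Cd274 at 0.028, Igtp at 0.0271 and Rsad2 at 0.0263.

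The other 22 lost the call under at least 1 alternative, and the highest adjusted p is given with each value. Of these, Nos2 stayed under 1 FPKM with spermine and passed the filter through the PBS libraries alone. Its difference is therefore no support for a smaller response. A smaller response with spermine was seen for the T cell chemokines Cxcl9 at -2.25 (up to 0.108), Cxcl11 at -1.59 (up to 0.268) and Cxcl10 at -0.99 (up to 0.184), and for the cytokine genes Il27 at -1.82 (up to 0.212) and Tnfsf10 at -1.93 (up to 0.755). The same direction held for the receptor brake Socs1 at -1.79 (up to 0.13) and the effectors Mx1 at -0.88 (up to 0.0882), Oas1a at -0.39 (up to 0.159), Gbp2 at -0.85 (up to 0.0874) and Zbp1 at -0.72 (up to 0.105). It also held for Cd40 at -0.70 (up to 0.284), Acod1 at -1.14 (up to 0.0684), Nos2 at -1.26 (up to 0.124), the spermine synthase gene Sms at -0.70 (up to 0.102) and Egr1 at -0.73 (up to 0.0718).

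A higher change with spermine was seen for the ISGF3 subunits Stat2 at 0.71 (up to 0.128) and Irf9 at 0.54 (up to 0.142) and the receptor chains Ifnar1 at 0.44 (up to 0.122) and Ifnar2 at 0.47 (up to 0.0774). It was also seen for the spermidine synthase gene Srm at 0.68 (up to 0.137), Ddit3 at 0.69 (up to 0.0864) and Tgfbr1 at 0.88 (up to 0.0531). Groups of 2 libraries were too small to look for single libraries that stand apart.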

How the results depend on the processing

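With TPM 1375 genes rose and 5022 fell with spermine, and 1005 differences were higher and 492 lower. Leaving out each library in turn gave 1630 to 2339 rises, 1550 to 2584 falls, 222 to 688 higher and 298 to 983 lower differences. The falls moved by over 1.5 times without the first (1550) or second (1657) spermine library at 3 h. The differences did so without the first (272 higher and 375 lower) or second (222 and 298) PBS library at 0 h, the first PBS library at 3 h (389 and 497), the first spermine library at 0 h (325 and 428), and the first (236 and 318) or second (262 and 365) spermine library at 3 h. Of the 4768 genes that passed with spermine, 65.27% (without the first 3 h library) to 99.73% still passed, with 183 changes of sign among those that passed under TPM and 154 under quantile normalization, and 0 under each other alternative. Of 252 named genes that passed, 209 passed under every alternative. Insig1 changed sign, to -0.068 with TPM and -0.22 after quantile normalization, as did the medians of the brakes on cytokine signalling (-0.00051 with TPM) and of MHC class II (-0.0022 with TPM, -0.073 after quantile normalization). Under limma voom on the rebuilt reads the difference changed sign for Spry3 (0.37), Il6 (-1.15), P2ry13 (0.45) and Arhgef37 (0.20). The cause of these changes was not tested. The element core with a further C at its end stood in 37 of the 145 promoters of genes that rose by 3 or more. Groups of 2 libraries limit the precision, and each library held at least 15723437 reads.

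The labels number the libraries 1 and 2 without saying that a number is shared. Deviations of same-numbered libraries correlated at 0.23, 0.25 and 0.37 among PBS 0 h, PBS 3 h and spermine 0 h, and at -0.061, -0.089 and -0.13 between each of these and spermine 3 h. Since not every pair was over 0.1, the numbers were not taken to pair the samples. With the replicate block 2400 genes rose and 2633 fell, and 769 differences were higher and 1044 lower. With the numbers of the spermine 3 h libraries crossed, chosen after seeing the data, 2838 rose and 3028 fell, and 1252 differences were higher and 1591 lower.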

Other observations

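Zinc finger genes named Zfp, many of which are DNA-binding repressors, fell more often than they rose: of 218 tested 98 fell and 12 rose with spermine (median -0.34, beside -0.01 over all genes, of which 22.1% fell and 19.7% rose; 146 fell and 8 rose with TPM, 107 and 9 after quantile normalization). With PBS 95 fell and 22 rose. Zfp608 fell from 3.61 and 3.47 to 0.736 and 0.805 FPKM (-1.36 ± 0.094, adjusted p = 4.63e-05, limma) and Zfp809, a silencer of retroviral elements, from 3.47 and 2.79 to 0.724 and 0.524 FPKM (-1.34 ± 0.17). Zfp319 and Zfp800 went the other way, from 4.08 and 4.92 to 21.1 and 21.8 FPKM (2.03 ± 0.10) and from 5.999 and 5.41 to 23.3 and 26.5 FPKM (1.95 ± 0.12).

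In the list of long non-coding RNAs by name, 7 of 13 tested genes fell and 2 rose (8 and 2 with TPM, 7 and 1 after quantile normalization). Neat1, the scaffold of nuclear paraspeckles, fell from 29.3 and 35.7 to 18.8 and 17.7 FPKM (-0.79 ± 0.12). Among the rises was Gm12250, from 0.569 and 0.561 to 557 and 590.3 FPKM (8.52 ± 0.097). It is annotated as a processed pseudogene, so its rise is not that of a long non-coding RNA.

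Gapdh, a glycolytic enzyme gene often used as a reference, was listed at only 6.73 and 19.5 FPKM at 0 h and 3.85 and 4.91 FPKM at 3 h, while Pkm of the same pathway was at 580.2 and 617 FPKM and then 698 and 675 FPKM and Ldha at 314 and 332 FPKM and then 331 and 322 FPKM. The cause of this low level was not tested, and no change of Gapdh is given as a result.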
